A study of Mus musculus with 12 samples.

Results

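Complement is a cascade of plasma proteins, and a group of its genes is read here in cultured mouse fibro/adipogenic progenitors (FAPs), mesenchymal cells of skeletal muscle that bear PDGFRα on their surface and give rise to fibroblasts or adipocytes. The group was listed by name as 9 genes: C1ra, C1s1, C2, C3, C4b, C7, Cfb, Serping1 and Cd55. A transcript cluster, the unit of the array that gathers the probes of a gene, was counted as a member when the platform annotation gave it exactly 1 symbol and that symbol was on the list. This gave 8 clusters for 8 genes, 1 each, out of 35556 clusters in the table and 21789 with exactly 1 symbol. C3 had no such cluster and is not analysed here. The genes were chosen by values measured on these arrays, their level and their change with PDGF-AA averaged over the oligonucleotides, so both are described below and support nothing.

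Total RNA was hybridised to 12 arrays (Affymetrix Mouse Gene 1.0 ST), with 2 arrays in each of these 6 groups: pA AMO with PDGF-AA, pA AMO without it, 5'ss AMO with PDGF-AA, 5'ss AMO without it, control AMO with PDGF-AA and control AMO without it. An AMO is an antisense oligonucleotide that hides a stretch of RNA: pA AMO is directed at a polyadenylation site inside an intron of Pdgfra, 5'ss AMO at a 5' splice site of Pdgfra that the labels call intronic, and control AMO is what both are set against. PDGF-AA, a ligand of PDGFRα, was absent or present at a dose that the labels write as 50 uM, which was not checked here. All 6 groups share the rest of the protocol. FAPs came from uninjured hindlimb muscle of male C57/Bl6 mice aged 8 to 12 weeks, each replicate pooled cells of 2 mice, and the cells grew for 2.5 days in serum, then received 10 µM AMO for 48 hours and again for 48 hours with or without PDGF-AA. No group went without AMO, so the effect of transfection itself has no measure here. No label says whether arrays with the same replicate number came from the same pool of mice. These are bulk cultures, in which fewer cells of a type and less RNA per cell cannot be told apart.

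Complement can start in several ways. In the classical pathway C1q binds a target and activates the proteases C1r and C1s, which cleave C4 and C2 into a convertase. In the alternative pathway C3 joins a fragment of factor B, and both routes split C3 and then C5 and lead to the terminal complex, which C7 helps to anchor in a membrane. The C1 inhibitor, encoded by Serping1, blocks C1r and C1s, and CD55 takes convertases apart on the surface of cells. Much plasma complement is made by the liver, while fibroblasts and other mesenchymal cells also make several of these proteins.

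The cells carried the markers of FAPs. Of 9 marker genes listed, 8 had a cluster and 7 of these lay above the 40 percent mark of all mean values, which is 6.10 on the log2 scale. Means over the 12 arrays were 12.81 for Pdgfra, 13.32 for the proteoglycan gene Dcn, 12.22 for Col1a1 and 11.66 for Cd34, while Nt5e was at 5.42. The leukocyte marker Ptprc was at 5.01, the macrophage marker Adgre1 at 4.12 and the hepatocyte product Alb at 4.51, all below the mark. Of the macrophage and leukocyte list 4 of 12 clusters lay above it, among them Cd68 (7.23), and the mean of the list ran from 5.58 to 5.81 with PDGF-AA and from 5.63 to 5.82 without it. Of 6 hepatocyte genes 5 were measured and 1 lay above the mark. The mean of that list ran from 6.09 to 6.24 with PDGF-AA and from 6.04 to 6.25 without it.

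One array stands apart in a way that touches the results. On replicate 1 of 5'ss AMO with PDGF-AA, the mean of 7 adipocyte genes, listed after the values were seen, was 9.36, against 7.13 to 8.77 on the other 11 arrays. Its value exceeded that of the same-numbered 5'ss AMO array lacking PDGF-AA by 3.29 for Adipoq, 3.14 for Cd36 and 2.91 for Fabp4 on the log2 scale. It did so by 1.79 for Plin1, 0.93 for Pparg, 0.33 for Lpl and only 0.09 for Cidec. The array is called adipocyte-rich below for the mean of these genes alone. That mean does not tell more adipocytes from more of this RNA per cell. On the other 5 replicate 1 arrays the mean lay between 7.13 and 7.79, lowest in control AMO with PDGF-AA, and on the 6 replicate 2 arrays between 8.40 and 8.77. The values that move most without the adipocyte-rich array are also given without it, and the part of adipocyte RNA in the results was not tested.

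Markers of other cells of muscle were read too. Of all 21789 clusters with exactly 1 symbol, 13073 lay above the mark, so a place above it does not show a cell type. Of 10 myogenic genes 9 lay above the mark, and their mean ran from 6.96 to 7.38 with PDGF-AA and from 6.74 to 7.78 without it. In pA AMO 10 of 10 were below 0 with PDGF-AA, with a median change of -0.49, and their mean was 7.25 and 6.96 with it, against 7.78 and 7.22 without it. Of 7 smooth muscle and pericyte genes 5 lay above the mark (6.86 to 7.11 with PDGF-AA, 6.92 to 7.19 without it), and of 8 endothelial genes 4 (6.17 to 6.30 with it, 6.09 to 6.25 without it). Of 5 Schwann cell genes 3 were measured and 2 of these lay above the mark (7.21 to 7.48 with PDGF-AA, 7.19 to 7.53 without it). The part of all these markers in the results was not tested.

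RefSeq promoters, from 250 bases before to 50 after a gene's start, were at hand for 5 of the 9 genes (assembly GRCm38.p6), and 3 are shown. C1ra and C1s1 are shown because these neighbours on chromosome 6 followed each other most closely across arrays, and C7 because it had the largest change with PDGF-AA. Capitals mark matches, on either strand, to any of 4 motifs: the gamma-activated site bound by STAT factors (TTCNNNGAA), a C/EBP site (TTGCNNAA), the TATA box (TATAAA) and an interferon-stimulated response element core (GAAA, any 2 bases, GAAA).
C1ra, chr6:124512371-124512670, plus strand: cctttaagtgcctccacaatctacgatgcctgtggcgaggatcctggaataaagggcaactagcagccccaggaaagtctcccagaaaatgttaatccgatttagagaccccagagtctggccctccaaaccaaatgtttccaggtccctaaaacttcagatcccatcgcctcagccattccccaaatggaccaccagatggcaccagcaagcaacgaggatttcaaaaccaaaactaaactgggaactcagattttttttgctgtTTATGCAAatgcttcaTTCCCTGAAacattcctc
C1s1, chr6:124542310-124542609, minus strand: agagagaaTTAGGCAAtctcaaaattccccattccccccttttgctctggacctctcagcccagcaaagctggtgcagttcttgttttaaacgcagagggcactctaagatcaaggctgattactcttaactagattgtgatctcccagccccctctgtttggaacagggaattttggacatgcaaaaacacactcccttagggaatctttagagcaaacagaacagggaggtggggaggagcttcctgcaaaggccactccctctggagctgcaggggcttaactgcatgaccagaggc
C7, chr15:5063724-5064023, minus strand: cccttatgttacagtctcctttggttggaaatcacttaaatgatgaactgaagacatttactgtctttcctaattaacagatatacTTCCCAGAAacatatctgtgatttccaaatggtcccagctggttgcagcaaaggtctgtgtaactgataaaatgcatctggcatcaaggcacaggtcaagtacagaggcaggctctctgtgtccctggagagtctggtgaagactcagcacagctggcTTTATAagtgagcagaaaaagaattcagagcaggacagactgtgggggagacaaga
The C1ra window holds 1 gamma-activated site and 1 C/EBP site that do not overlap, and the C1s1 window holds 1 C/EBP site. The C7 window holds 1 gamma-activated site and 1 TATA box. A second annotated start of C1s1 gives a window, chr6:124542272-124542571, without a match to any of the 4, and the Cd55 promoter on chromosome 1 (130462695 to 130462994) has none either. Among all 32851 promoters of that length, 8.30% hold the gamma-activated site, 10.8% the C/EBP site, 13.6% the TATA box and 3.44% the interferon element. A match describes letters only.

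The levels of all 8 members lay above the 40 percent mark on average, as log2 values made by the authors with RMA. Serping1 moved least over the 12 arrays, between 12.85 and 13.19 with a median of 13.02. C7 moved most, between 9.25 and 10.55 with a median of 10.07. The standard deviation over the 12 arrays was 0.10 for Serping1, 0.20 for C2, 0.22 for C1s1 and for Cd55, 0.24 for C1ra and for Cfb, 0.33 for C4b and 0.42 for C7, against a median of 0.12 over the 13073 clusters above the mark. Probes of different clusters differ in brightness, so these levels do not rank the genes against each other.

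**Figure D1:**
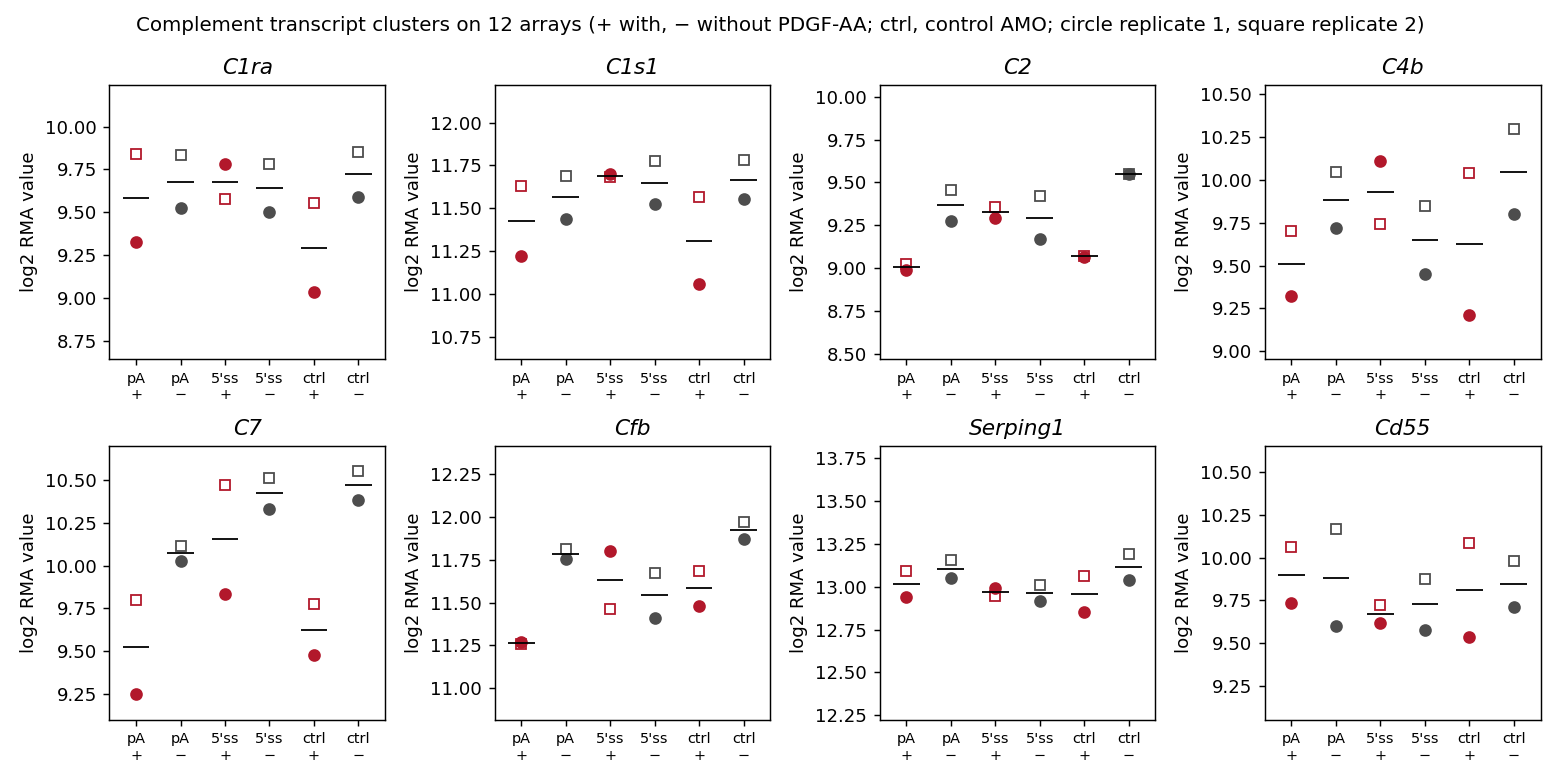
Log2 RMA value (y axis, 1.6 units tall in every panel) of each complement cluster in the 6 groups (x axis: pA, 5'ss or control AMO, with + or without − PDGF-AA). Circles are replicate 1, squares replicate 2, and bars the mean of both; C7 and C2 with PDGF-AA sit below the same AMO without it for pA and control AMO, where their arrays do not overlap.

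The proteases of the C1 complex come first. C1ra (cluster 10541678), which encodes C1r, read 9.33 and 9.84 in pA AMO with PDGF-AA, against 9.52 and 9.83 without it (replicates 1 and 2). It read 9.78 and 9.58 in 5'ss AMO with PDGF-AA, against 9.50 and 9.78 without it. In control AMO with PDGF-AA it read 9.03 and 9.56, against 9.59 and 9.85 without it. Only the control AMO pair did not overlap, and the lowest of the 12 arrays was replicate 1 of control AMO with PDGF-AA. The log2 change with PDGF-AA was -0.09 in pA AMO, 0.04 in 5'ss AMO and -0.43 in control AMO (SE 0.217 each, 2 arrays against 2), and -0.16 (SE 0.126) over the 3 AMOs. Without the adipocyte-rich array it was -0.06 in 5'ss AMO.

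C1s1 (cluster 10547740) encodes C1s, the protease that C1r activates. It read 11.22 and 11.63 in pA AMO with PDGF-AA, against 11.44 and 11.69 without it. In 5'ss AMO with PDGF-AA it read 11.70 and 11.68, against 11.52 and 11.78 without it, and in control AMO with PDGF-AA 11.06 and 11.56, against 11.55 and 11.78 without it. All 3 pairs of groups overlapped, the control AMO pair by a margin in the second decimal. The change was -0.14 in pA AMO, 0.04 in 5'ss AMO and -0.36 in control AMO (SE 0.192), and -0.15 (SE 0.111) over the AMOs. The probes of C1ra and C1s1 may also bind transcripts of near copies, C1rb and C1s2. A cluster named for both C1rb and C1ra, which is no member, ran with C1ra (r = 0.958 over 12 arrays) and had the same averaged change of -0.16.

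C4b and C2 encode the substrates of C1s. C4b (cluster 10450242) read 9.32 and 9.70 in pA AMO with PDGF-AA, against 9.72 and 10.05 without it. It read 10.11 and 9.75 in 5'ss AMO with PDGF-AA, against 9.45 and 9.85 without it, and 9.21 and 10.04 in control AMO with PDGF-AA, against 9.80 and 10.30 without it. The replicates of control AMO with PDGF-AA lay 0.83 apart, and the only pair of groups without overlap was that of pA AMO. The change was -0.37 in pA AMO, 0.28 in 5'ss AMO and -0.42 in control AMO (SE 0.282). In 5'ss AMO it was 0.10 without the adipocyte-rich array. C4a, a near copy of C4b, had a cluster of its own that ran with C4b (r = 0.934 over 12 arrays). Its averaged change was -0.06, against -0.17 for C4b. Whether the probes of either bind transcripts of the other was not tested, so the values of both are uncertain.

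C2 (cluster 10450344) had the closest replicates of the 8 in the control AMO groups. It read 8.99 and 9.03 in pA AMO with PDGF-AA, against 9.28 and 9.45 without it. In 5'ss AMO it read 9.29 and 9.36 with PDGF-AA, against 9.17 and 9.42 without it. In control AMO it read 9.06 and 9.07 with PDGF-AA, against 9.55 and 9.55 without it. Both the control and the pA AMO pair were without overlap and the 5'ss AMO pair overlapped. The change was -0.36 in pA AMO, 0.03 in 5'ss AMO and -0.48 in control AMO (SE 0.109), and -0.27 (SE 0.0632) over the AMOs, where PDGF-AA took up 48.2% of the sum of squares over the 12 arrays.

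Cfb (cluster 10450325) encodes factor B of the alternative pathway and is the neighbour of C2 on chromosome 17, with 5 coding genes between it and C4b. It read 11.27 and 11.26 in pA AMO with PDGF-AA, the lowest 2 arrays of the 12, against 11.75 and 11.81 without it. In 5'ss AMO with PDGF-AA it read 11.80 and 11.46, against 11.41 and 11.68 without it. In control AMO with PDGF-AA it read 11.48 and 11.69, against 11.87 and 11.97 without it. The change was -0.52 in pA AMO, 0.09 in 5'ss AMO and -0.34 in control AMO (SE 0.137). Without the adipocyte-rich array the value in 5'ss AMO was -0.08. That array is 1 of 2 whose removal changed the sign of this value. Over the AMOs the change was -0.26 (SE 0.0793) with the adipocyte-rich array and -0.31 without it.

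C7 (cluster 10427436), a part of the terminal complex, had the largest change of the 8. It read 9.25 and 9.80 in pA AMO with PDGF-AA, against 10.03 and 10.11 without it. It read 9.84 and 10.47 in 5'ss AMO with PDGF-AA, against 10.33 and 10.51 without it, and 9.48 and 9.78 in control AMO with PDGF-AA, against 10.38 and 10.55 without it. The arrays of pA and control AMO did not overlap between doses, and those of 5'ss AMO did. The change was -0.55 in pA AMO, -0.27 in 5'ss AMO and -0.84 in control AMO (SE 0.222), and -0.55 (SE 0.128) over the AMOs. In 5'ss AMO it was 0.05 without replicate 1 with PDGF-AA, while over the AMOs it was -0.45 without that array.

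The 2 regulators stayed closest to level. Serping1 (cluster 10484463), on chromosome 2, read 12.94 and 13.09 in pA AMO with PDGF-AA, against 13.05 and 13.16 without it. It read 13.00 and 12.95 in 5'ss AMO with PDGF-AA, against 12.92 and 13.01 without it, and 12.85 and 13.06 in control AMO with PDGF-AA, against 13.04 and 13.19 without it. All 3 pairs of groups overlapped, and the change over the AMOs was -0.08 (SE 0.064).

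Cd55 (cluster 10357488) read 9.74 and 10.06 in pA AMO with PDGF-AA, against 9.60 and 10.17 without it. It read 9.62 and 9.72 in 5'ss AMO with PDGF-AA, against 9.58 and 9.88 without it, and 9.54 and 10.09 in control AMO with PDGF-AA, against 9.71 and 9.98 without it. The replicates lay further apart than the doses, and the change over the AMOs was -0.03 (95% interval -0.32 to 0.26). Cd55b, its neighbour and near copy, was at a mean of 4.29, below the mark.

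Across the list the averaged PDGF-AA change was below 0 for 8 of 8 members, with a median of -0.17 against 0.0014 over all 21789 clusters, of which 49.2% lay below 0. No member's 6 arrays with PDGF-AA were all below its 6 without, which holds for 0.115% of clusters. In limma with Benjamini-Hochberg adjustment 0% of clusters passed the threshold of 0.05, with 3.39% at an unadjusted p under 0.05, among them C7, C2 and Cfb. With the replicate number as a block, which leaves the change as it is, 21 clusters (0.0964%) passed, among them C7 at -0.55 (SE 0.0771, adjusted p = 0.0489, limma). Its adjusted p without the block was 0.525. With the block and each array left out in turn, C7 passed only without replicate 2 of 5'ss AMO with PDGF-AA (-0.61, adjusted p = 0.0351 in limma), and the adjusted p ran from 0.0851 to 0.212 without any other array. Since the contrast chose the list, these p-values are no support for it.

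Same-numbered arrays give 6 differences with minus without PDGF-AA for each gene. C7 was below 0 in 6 of 6, from -0.91 to -0.04, which holds for 2.30% of clusters. C1s1, C2, C4b, Cfb and Serping1 were below 0 in 5 of 6, and in each the exception was replicate 1 of 5'ss AMO, at 0.66 for C4b and 0.39 for Cfb. C1ra was below 0 in 4 of 6 and Cd55 in 3 of 6. By pair, 7 and 7 of 8 members were below 0 in pA AMO, 1 and 8 in 5'ss AMO, and 8 and 7 in control AMO (replicates 1 and 2). The median over members was -0.25 and -0.21 in pA AMO, 0.15 and -0.10 in 5'ss AMO, and -0.49 and -0.27 in control AMO.

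**Figure D2:**
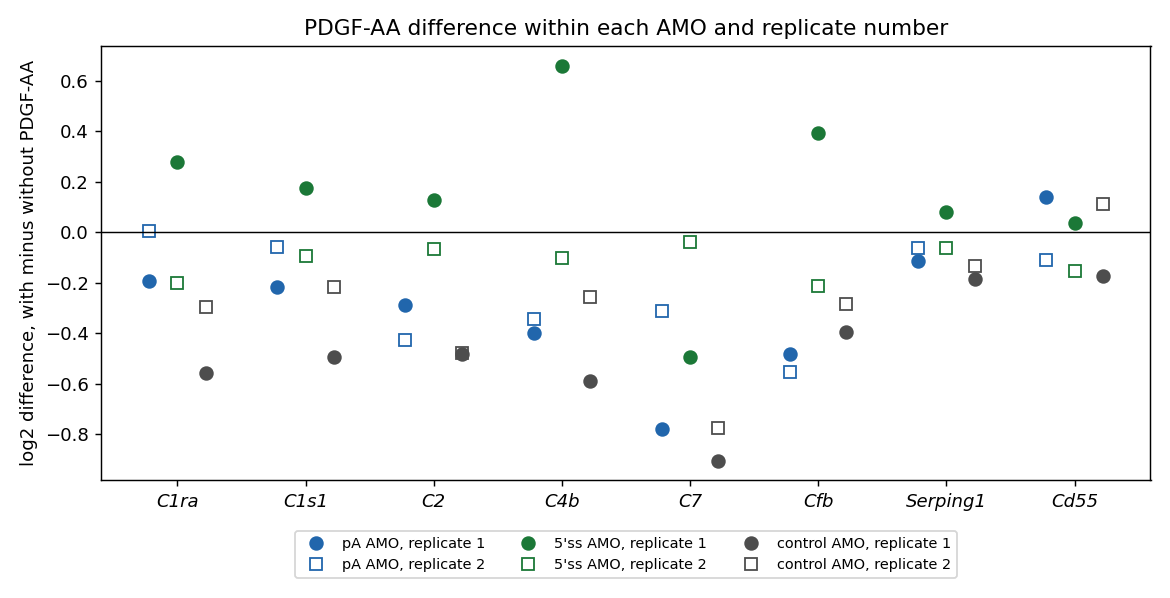
Log2 difference with minus without PDGF-AA (y axis) for each complement cluster (x axis) within each AMO and replicate number. Circles are replicate 1 and squares replicate 2; C7 lies below 0 in all 6, and replicate 1 of 5'ss AMO lies above 0 for the other 7 clusters.

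Within AMOs, 4 members had no overlap between doses in pA AMO (C2, C4b, C7 and Cfb, all lower, as in 12.3% of clusters). In 5'ss AMO 0 members were without overlap, against 19.6% of clusters in either direction, and in control AMO it was 4 (C1ra, C2, C7 and Cfb, all lower, as in 13.6%). The median change was -0.25 in pA AMO, 0.03 in 5'ss AMO and -0.39 in control AMO, with all-cluster medians of -0.01, -0.01 and 0.01. Below 0 were 7 of 8 members in pA AMO (52.6% of clusters), 2 of 8 in 5'ss AMO (52%) and 8 of 8 in control AMO (46.7%). No member passed in limma in any of the 3, where 0% of clusters passed, with or without the block, and 2.37% (pA AMO), 1.64% (5'ss AMO) and 4.81% (control AMO) had an unadjusted p under 0.05. The smallest adjusted p of a member was 0.622 in control AMO (C2), 0.0896 with the block (C7). Single arrays moved these medians. In pA AMO it was -0.10 with 5 of 8 below 0 without replicate 1 with PDGF-AA, and -0.12 with 6 of 8 without replicate 2 lacking it. The 5'ss AMO median was -0.09 with 7 of 8 below 0 without replicate 1 lacking PDGF-AA, 0.16 with 1 of 8 without replicate 2 lacking it, and 0.01 with 4 of 8 without the adipocyte-rich array. In control AMO it was -0.13 without replicate 1 with PDGF-AA, with C4b at -0.01 and C7 at -0.69.

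Whether the PDGF-AA change differed between AMOs was tested as a difference of differences. For 5'ss minus control AMO it was above 0 for 7 of 8 members, with a median of 0.45 against -0.02 over all clusters, of which 53.8% lay below 0. It was 0.70 (SE 0.399) for C4b, 0.57 (SE 0.314) for C7, 0.51 (SE 0.155) for C2 and 0.43 (SE 0.194) for Cfb. None passed in limma, where 0% of clusters did (adjusted p = 1 for all 8, and 0.467 or more with the block), and C2 alone had an unadjusted p under 0.05, as did 2.95% of clusters. Without the adipocyte-rich array it was above 0 for 8 of 8, with a median of 0.38, C4b at 0.52, C7 at 0.89 and Cfb at 0.26. Without replicate 1 of control AMO with PDGF-AA the median was 0.24. For pA minus control AMO it was above 0 for 7 of 8, with a median of 0.10 (52.2% of clusters below 0), from -0.18 for Cfb to 0.33 for C1ra. Without replicate 1 of control AMO with PDGF-AA 5 of 8 were below 0, with a median of -0.03, and without replicate 2 of that group the median was 0.38. In limma 0% of clusters passed and 2.59% had an unadjusted p under 0.05. Both differences use the same control arrays, and the PDGF-AA contrasts that they are built from were known when the list was made.

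The AMOs themselves were compared at each dose. The PDGF-AA contrasts, known when the list was made, use these same arrays, so this comparison is not independent of that choice. With PDGF-AA, 5'ss minus control AMO was above 0 for 7 of 8 members and below 0 for 1 (55.6% of clusters were below 0), with a median of 0.28, against -0.02 over all clusters. C7 was higher by 0.53 (SE 0.222, 95% interval 0.03 to 1.02), C1ra by 0.38 (SE 0.217), C1s1 by 0.38 (SE 0.192) and C2 by 0.26 (SE 0.109, interval 0.01 to 0.50). These 4 had no overlap, all higher, as in 12.5% of clusters, and C4b at 0.30 overlapped. Cfb was at 0.05, Serping1 at 0.01 and Cd55 at -0.14. None passed in limma (0% of clusters, with 6% at an unadjusted p under 0.05, smallest adjusted p of a member 0.823). With the block 0.101% of clusters passed in limma and no member did, C7 being nearest at an adjusted p of 0.155.

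The replicates of that comparison went apart. Among arrays numbered 1 all 8 members were higher with 5'ss AMO, with a median of 0.34, and among arrays numbered 2 it was 4 of 8, with a median of -0.05. The arrays numbered 1 are the highest and the lowest of the 12 for the adipocyte genes (9.36 with 5'ss AMO, 7.13 with control AMO), and the part of this was not tested. Without replicate 1 of 5'ss AMO with PDGF-AA the median was 0.20 and 3 members were below 0, with C7 at 0.84 and C4b at 0.12. Without replicate 1 of control AMO with PDGF-AA, which is the lowest array for C1ra, C1s1, C4b, Serping1 and Cd55, the median was 0.03 and 4 members were below 0, and without replicate 2 of that group it was 0.45 with 0 below 0.

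Without PDGF-AA, 5'ss minus control AMO was below 0 for 8 of 8 members, against 49.0% of clusters, with a median of -0.13. C4b was at -0.40 (SE 0.282), Cfb at -0.38 (SE 0.137, 95% interval -0.69 to -0.07) and C2 at -0.26 (SE 0.109, interval -0.50 to -0.01). C2, Cfb and Serping1 had no overlap, all lower, as in 11.1% of clusters. C7 was at -0.05 and C1s1 at -0.02. None passed in limma (0% of clusters, with 2.07% at an unadjusted p under 0.05, adjusted p = 1 for all 8). With the block 0.00459% of clusters passed and no member. Among same-numbered arrays 8 of 8 members were below 0 in both pairs, with medians of -0.13 and -0.11. Leaving out 1 array breaks a pair: 4 of 8 were then below 0 without replicate 2 of control AMO (median -0.03) or replicate 1 of 5'ss AMO (median -0.04), and 8 of 8 without either of the other 2 arrays (median -0.24).

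**Figure D3:**
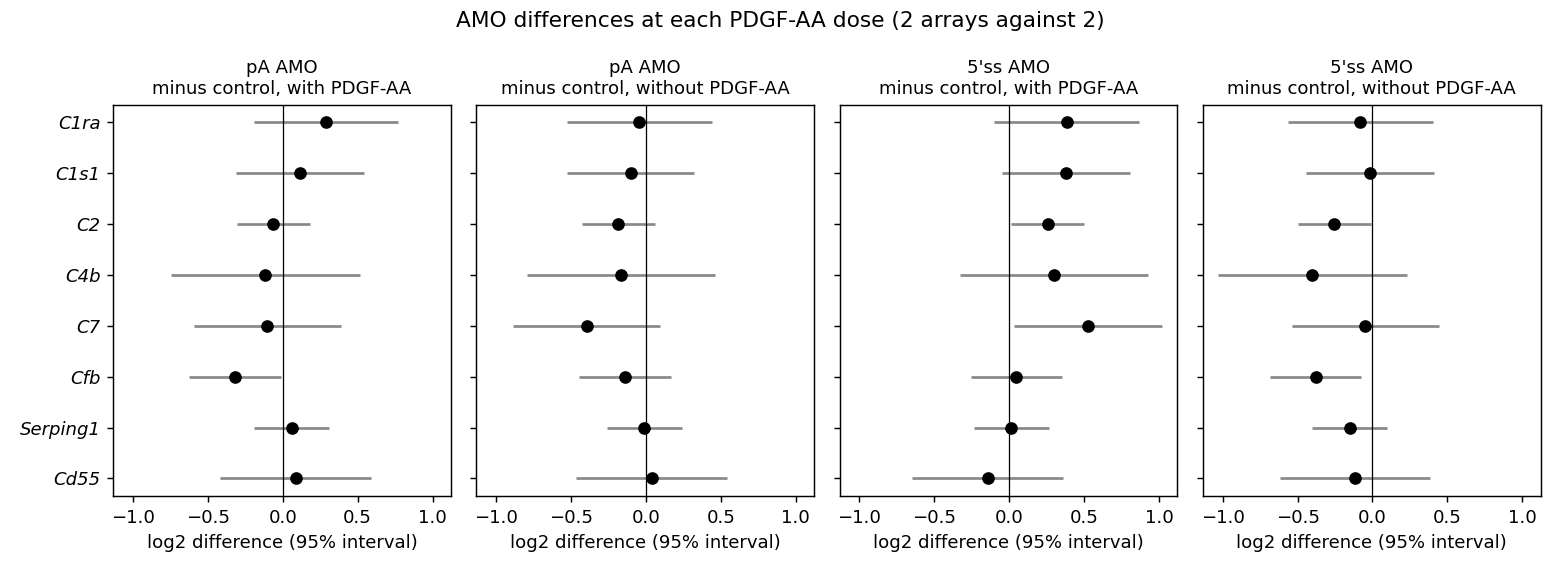
Log2 difference from control AMO (x axis) of each complement cluster (y axis) for pA AMO and 5'ss AMO with and without PDGF-AA, with 95% intervals of the limma fit (2 arrays against 2). The 4 panels share control arrays at each dose; C7 and C2 lie above 0 with 5'ss AMO and PDGF-AA, and C2 and Cfb lie below 0 with 5'ss AMO without it.

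For pA AMO the same control arrays apply. With PDGF-AA, pA minus control AMO was below 0 for 4 of 8 members (55.9% of clusters) with a median near 0. Cfb was lowest at -0.32 (SE 0.137, 95% interval -0.62 to -0.01) and C1ra highest at 0.29 (SE 0.217). C2 and Cfb had no overlap, both lower, as in 19.2% of clusters. Without PDGF-AA it was below 0 for 7 of 8 (50.1% of clusters), with C7 at -0.40 (SE 0.222), C2 at -0.18 (SE 0.109) and Cfb at -0.14 (SE 0.137), the 3 without overlap, as in 12.3% of clusters. Serping1 was at -0.01 (interval -0.26 to 0.24) and Cd55 at 0.04 (interval -0.46 to 0.54). None of these passed in limma at either dose, where 0% of clusters did, with or without the block, and where 4.89% with PDGF-AA and 1.49% without it had an unadjusted p under 0.05. The smallest adjusted p of a member was 0.95 in limma, or 0.338 with the block (Cfb with PDGF-AA). Among same-numbered arrays without PDGF-AA 7 of 8 were below 0 in both pairs, with medians of -0.11 and -0.09. Without replicate 2 of control AMO lacking PDGF-AA that comparison had 3 of 8 below 0 and a median of 0.04, and without replicate 1 of pA AMO 4 of 8 and 0.01. With PDGF-AA the median was -0.16 without replicate 1 of control AMO and 0.23 without replicate 2.

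Averaged over PDGF-AA, 4 of 8 members were below 0 for each of the 2 AMOs against control (54.8% of clusters for pA AMO and 53.4% for 5'ss AMO), and 0 were without overlap, against 2.65% of clusters for pA AMO and 2.97% for 5'ss AMO. C7 was at -0.25 (SE 0.157) for pA AMO and at 0.24 for 5'ss AMO, and Cfb at -0.23 (SE 0.0971) for pA AMO and -0.17 for 5'ss AMO. Without the adipocyte-rich array C7 was at 0.40 and Cfb at -0.25 for 5'ss AMO. None passed in limma (0% of clusters in both, with 3.25% and 4.8% at an unadjusted p under 0.05, smallest adjusted p of a member 0.995), nor with the block (0% for pA AMO and 0.0138% for 5'ss AMO).

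The spread of each cluster over the 12 arrays, the adipocyte-rich one included, divided unevenly. PDGF-AA took up 48.2% of the sum of squares for C2, 46.0% for C7 and 31.7% for Cfb, a share that again restates how the list was chosen. The median was 3.57% over the 13073 clusters above the mark, and the medians that follow are over the same clusters. The replicate number took up 69.8% for Cd55, 41.8% for C1s1 and 36.1% for C1ra, but 1.07% for Cfb and 5.52% for C2, against a median of 31.4%. The AMO by PDGF-AA term took up 31.5% for C2 and 31.1% for Cfb, against a median of 9.76%, and the AMO 24.0% for C7, against 14.0%. Replicate 2 was higher than replicate 1 in 6 of 6 groups for C2, C7 and Cd55, as in 17% of clusters, and on average by 0.35 for Cd55 and C4b and 0.32 for C7.

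**Figure D4:**
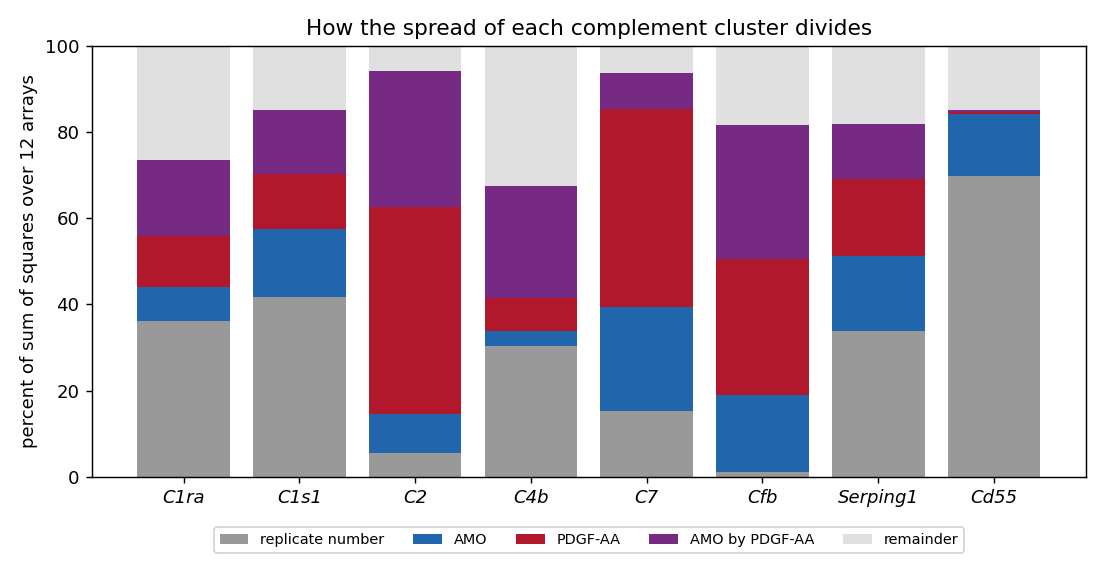
Percent of the sum of squares over 12 arrays (y axis, 0 to 100) that fell to replicate number, AMO, PDGF-AA, their combination and the remainder, for each complement cluster (x axis). PDGF-AA is the largest share for C2, C7 and, narrowly, Cfb. The replicate number is the largest for C1ra, C1s1, Serping1 and Cd55, and the remainder for C4b.

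Correlations between the 8 clusters are a description only, since genes chosen for a change with PDGF-AA in 1 direction share that change by choice. Over the 12 arrays, which share replicate numbers and treatments, all 28 pairs had a Pearson r above 0, from 0.123 (C7 with Cd55) to 0.938 (C1ra with C1s1), with a median of 0.604. After each replicate number's mean was subtracted, 25 pairs were above 0, with a median of 0.528. C1ra and C1s1 were still at 0.90, C4b and Cfb at 0.85, and C2 at 0.81 with both C7 and Cfb. Cd55 stood off from the rest, at -0.41 with C7, -0.11 with C2 and -0.05 with C1s1, and nearest to Serping1 at 0.64. Values without the shared change were added after seeing the data. With the mean of each PDGF-AA dose subtracted as well, 24 pairs were above 0 and the median was 0.352, with C1ra and C1s1 at 0.88, C4b and Cfb at 0.86, and Cd55 and C7 at -0.73. Without the adipocyte-rich array (11 arrays, replicate means subtracted) 25 pairs were above 0, with a median of 0.552.

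**Figure D5:**
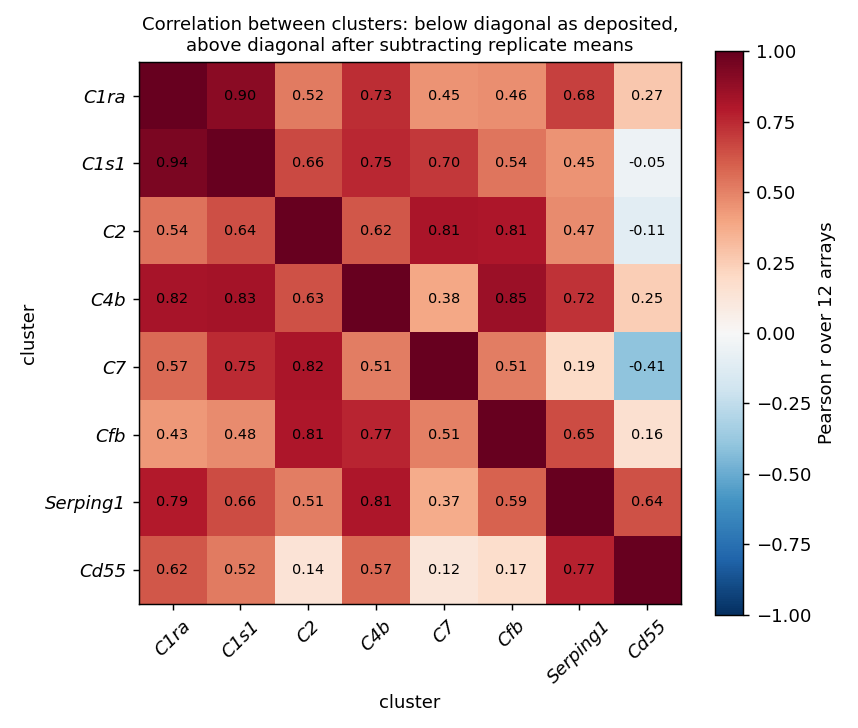
Pearson r over 12 arrays between complement clusters (both axes), below the diagonal for the deposited values and above it after subtracting the mean of each replicate number. C1ra with C1s1 is highest on both sides, at 0.94 and 0.90, and Cd55 with C7 is lowest, at 0.12 and -0.41.

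By the same measure, r over 12 arrays after the replicate means were subtracted, the clusters most like each member were sought among those above the mark with exactly 1 symbol. Predicted, unnamed, small RNA and olfactory receptor genes were left out. Each value below is the top of a search over many clusters, so a high r is partly set by the search. The mean of each PDGF-AA dose was not subtracted here, and the adipocyte-rich array was kept. For C7 they were the sphingosine-1-phosphate receptor gene S1pr3 (0.976), Mdga1 (0.974) and Olfml2b (0.973). For C1s1 they were the metalloreductase gene Steap4 (0.98), Epdr1 (0.971) and Castor2 (0.968), and for C1ra the matrix gene Abi3bp (0.971), Sypl (0.961) and the glutamine synthetase gene Glul (0.939). C2 was most like the kininogen gene Kng1 (0.968), Best1 (0.931) and Lman2 (0.919). Cfb was most like Tmem26 (0.951), Tbcb (0.927) and the cystatin C gene Cst3 (0.916). C4b was most like Zfp236 (0.937), Slc25a10 (0.924) and its near copy C4a (0.91). Serping1 was most like Nmt2 (0.92), Sgce (0.905) and Dpp7 (0.898), and Cd55 like Abhd4 (0.979), Usf3 (0.928) and Ubr1 (0.911). None of the 8 had another member among its first 3.

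The other complement genes were mostly dim. Of 16 further classical and lectin pathway genes 15 were measured and 7 lay above the mark. The C1q genes C1qa (5.95), C1qb (5.01) and C1qc (5.51) were below it, and Colec12 (11.71), Masp1 (8.70) and C1rl (8.32) above it. With PDGF-AA averaged, 5 of the 15 were below 0 and 10 above, with a median of 0.02, C1s2 at -0.13, C1rl at 0.08 and Colec12 at -0.06. In 5'ss minus control AMO, averaged over PDGF-AA, the largest of those above the mark were Fcna at -0.08, Masp1 at -0.07 and C4a at -0.05. Of the other terminal genes, which are Hc (complement C5), C6, C8a, C8b, C8g and C9, 0 of 6 lay above the mark. Of 10 receptors only C1qbp (9.44) did, at -0.07 with PDGF-AA averaged and 0.08 in the averaged 5'ss minus control AMO, while C3ar1 (4.23) and C5ar1 (4.73), the receptors of the fragments C3a and C5a, did not. Properdin, encoded by Cfp, was at 5.96. None of these genes passed in any comparison in limma, where 0% of clusters passed, nor with the block.

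Among 10 other regulators 9 were measured, 4 of them above the mark, and 7 of 9 were below 0 with PDGF-AA averaged, with a median of -0.02. Vitronectin, encoded by Vtn and an inhibitor of the terminal complex, was at -0.39 (SE 0.187), and clusterin, encoded by Clu and another inhibitor of that complex, at -0.28 (SE 0.105). Cr1l, which encodes Crry, a mouse regulator of C3 convertases, was at -0.02 (SE 0.0987). In the averaged 5'ss minus control AMO Vtn was at 0.17, Clu at 0.17 and Cr1l at 0.05. None passed in either comparison. The smallest adjusted p of the list in limma was 0.695 with PDGF-AA averaged and 0.995 in the averaged 5'ss minus control AMO.

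Genes of signals known to act on complement expression were read as well. Of 22 IL-6 and NF-kB genes 20 were measured, and with PDGF-AA averaged 12 were below 0 and 8 above, with a median of -0.04. The acute-phase genes Saa3 and Lcn2 were at -0.61 (SE 0.184) and -0.48 (SE 0.186), and Il33 at -0.17. In 5'ss minus control AMO averaged over PDGF-AA 14 of 20 were above 0, with Saa3 at 0.99 (SE 0.226), Lcn2 at 0.67 (SE 0.228) and Il33 at 0.49 (SE 0.101). The mean of the list ran with C1s1 (r = 0.873 over 12 arrays, replicate means subtracted) and C7 (0.774), and ran against Cd55 (-0.482). Its r was 0.649 with C2, 0.632 with C1ra, 0.542 with C4b, 0.428 with Cfb and 0.096 with Serping1. Of 26 interferon response genes 20 were measured, of which 16 were above 0 with PDGF-AA averaged (49.2% of clusters were below 0). They were led by Ifit2 at 0.60 (SE 0.229), Rsad2 at 0.45 (SE 0.305) and Ifit1 at 0.37 (SE 0.19). Within AMOs 14 of 20 were below 0 in control AMO (median -0.04), 4 in pA AMO (median 0.27) and 4 in 5'ss AMO (median 0.11). The mean of the list was 10.22 on replicate 1 of pA AMO with PDGF-AA and 9.49 on replicate 2. In the averaged 5'ss minus control AMO 20 of 20 were below 0 (53.4% of clusters) with a median of -0.38, Irf7 at -0.93, Ifit3 at -0.68 and Gbp3 at -0.61. The mean of that list ran against C1s1 (-0.678) and C1ra (-0.506). Its r was -0.491 with C7, -0.428 with C4b, -0.29 with Cfb, -0.258 with C2, -0.018 with Serping1 and 0.178 with Cd55. Of 9 glucocorticoid targets 5 were below 0 with PDGF-AA averaged, with Sgk1 at -0.20, Per1 at 0.12 and Fkbp5 at -0.11. In the averaged 5'ss minus control AMO Dusp1 was at -0.15, Sgk1 at 0.10 and Per1 at -0.10. The r of the mean of the glucocorticoid list with the members ran from -0.325 (C7) to 0.622 (Cd55). None of the genes of these 3 lists passed in limma in these averaged comparisons (smallest adjusted p 0.558, Il33), and their part in the complement values was not tested.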

How the data were processed

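Expression was read on 12 arrays in 6 groups of 2. Each deposited value is a log2 level per transcript cluster. The authors used RMA within Affymetrix Expression Console; the submitters' processing notes say so without versions. RMA corrects background, quantile-normalizes arrays together and summarises probes. Array medians lay between 6.04 and 6.23. Scanner files were not used here. Precision is limited by the number of arrays.

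The platform annotation gives 1 symbol to 21789 of 35556 clusters (19938 genes), several to 1621 and does not list 12146. Of the 21789, 21698 matched RefSeq genes (GRCm38.p6) and 0 symbols changed. The members and gene lists were chosen with earlier results of these data known. The named genes are all members, the 3 genes of each other list with the largest averaged PDGF-AA or 5'ss minus control change among those above the 40 percent mark (mean log2 of 6.10), and the 3 clusters most like each member. Further genes, such as C1q, receptors and cell markers, are named for their role.

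One mean per group was fitted over all 12 arrays with limma 3.58.1 in R 4.3.3 (6 residual degrees of freedom, two-sided, no trend, not robust). Benjamini-Hochberg adjustment ran over the 21789 clusters, and a call needed an adjusted p under 0.05. The script was first tested on simulated data. The p-values measure the spread between these samples.

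All groups hold replicates 1 and 2, with no label on what equal numbers have in common. After group means were removed, equal numbers correlated at 0.197 to 0.613 in the 15 pairs of groups (criterion 0.1), and each of the 12 arrays was most like one with its own number, so by this hint from the data the numbers pair the samples. SEs, intervals and p-values are from the fit without the number unless another setting is named. Adding the number as a block (5 residual degrees of freedom) is an alternative. The others were an intensity trend, robust moderation, a filter on dim clusters, all clusters, repeated quantile normalization, median centring, fits on the contrast's own groups and leaving out each array.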

Additional observations from a re-analysis of the deposited data

How the results depend on the processing

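No comparison had a cluster past the threshold as reported, and the counts that differed are these. For PDGF-AA averaged over AMOs 31 clusters passed with an intensity trend and 21 with the replicate block. For PDGF-AA in control AMO 7 passed with the trend. For 5'ss minus control AMO averaged over PDGF-AA 6 passed with the trend, 3 with the block, and 0 to 1 when an array was left out (1 without replicate 1 or 2 of pA AMO without PDGF-AA). For 5'ss minus control AMO without PDGF-AA 1 passed with the block. For 5'ss minus control AMO with PDGF-AA 2 passed with the trend, 5 with repeated quantile normalization, 1 with median centring, 22 with the block, and 0 to 1 when an array was left out. The cause was not tested. Of the members, C7 passed with the block (log2 change -0.55 with PDGF-AA averaged, adjusted p = 0.0489 in limma), and over its alternatives without the block the adjusted p ran from 0.104 to 1. The block changed no other member's call, and no member passed in another setting except C7 with the block and 1 array left out, an alternative chosen after seeing the data. Leaving out an array moved 80 of 1152 member changes by more than the residual standard deviation. It moved the averaged PDGF-AA change of C7 between -0.66 and -0.45 and the members' median between -0.26 and -0.07, with 7 or 8 of 8 below 0, and Cd55 changed sign in 5 of the 12. Where 1 array of a group is left out, the lone array is assumed to vary like the other groups.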
